A study of Mus musculus with 10 samples.

Results

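The inward rectifier potassium channel genes (Kcnj) were followed in the striatum of R6/2 and control mice. The members are 9 genes chosen by name (Kcnj2, Kcnj3, Kcnj4, Kcnj6, Kcnj9, Kcnj10, Kcnj11, Kcnj12 and Kcnj16), taken from the 15 Kcnj genes among the 47632 gene rows of the deposited table. R6/2 is a mouse model of Huntington's disease whose transgene carries the first exon of human huntingtin with an expanded CAG repeat, so its mice still have both of their own huntingtin alleles. The R6/2 libraries came from hemizygous animals and the control libraries from isogenic wild-type animals, with 5 libraries in each group, all from striatum taken at 11 weeks of age. No label says that each library came from its own mouse, so p-values measure the spread between these libraries, which may be partly technical. The values are FPKM (fragments counted relative to transcript length and library size), and the depth behind them is unknown.

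Inward rectifiers pass potassium into a cell more easily than out of it, which holds the resting potential near the potassium equilibrium. Each channel is a tetramer of subunits that need the membrane lipid PIP2 to open, and the subfamilies differ in what else controls them. The Kir2 channels are open at rest and give spiny projection neurons, the output neurons of the striatum, their low resting potential. The Kir3 channels, also called GIRK, are opened by G protein beta-gamma subunits released by inhibitory receptors. The Kir4 and Kir5 subunits carry the potassium uptake of astrocytes, and Kir6 subunits with sulfonylurea receptors form channels that close when ATP is plentiful.

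In R6/2 striatum 6 of the 9 members were called, some lower and some higher. The Kir2 genes Kcnj2 and Kcnj4, the astrocyte gene Kcnj10 and the ATP-sensitive channel gene Kcnj11 fell, to between 38.0% and 64.3% of the control mean. The Kir3 genes Kcnj3 and Kcnj6 rose, to 214% and 181% of it. Kcnj12, Kcnj9 and Kcnj16 were not called. All 9 members reached the mean of 1 FPKM required for a test. With limma, 2 of the 9 were higher and 4 lower at a Benjamini-Hochberg adjusted p under 0.05, where 5.00% of the 15905 genes tested were called higher and 9.11% lower. The same 6 members had groups that did not overlap, 2 of them higher and 4 lower, beside 4.50% and 8.58% of all genes tested. The median log2 change was -0.17 over the 9 members and 0.001 over all genes tested. Log2 changes are R6/2 minus control on log2(FPKM + 1), a scale that shrinks changes at low levels.

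**Figure D1:**
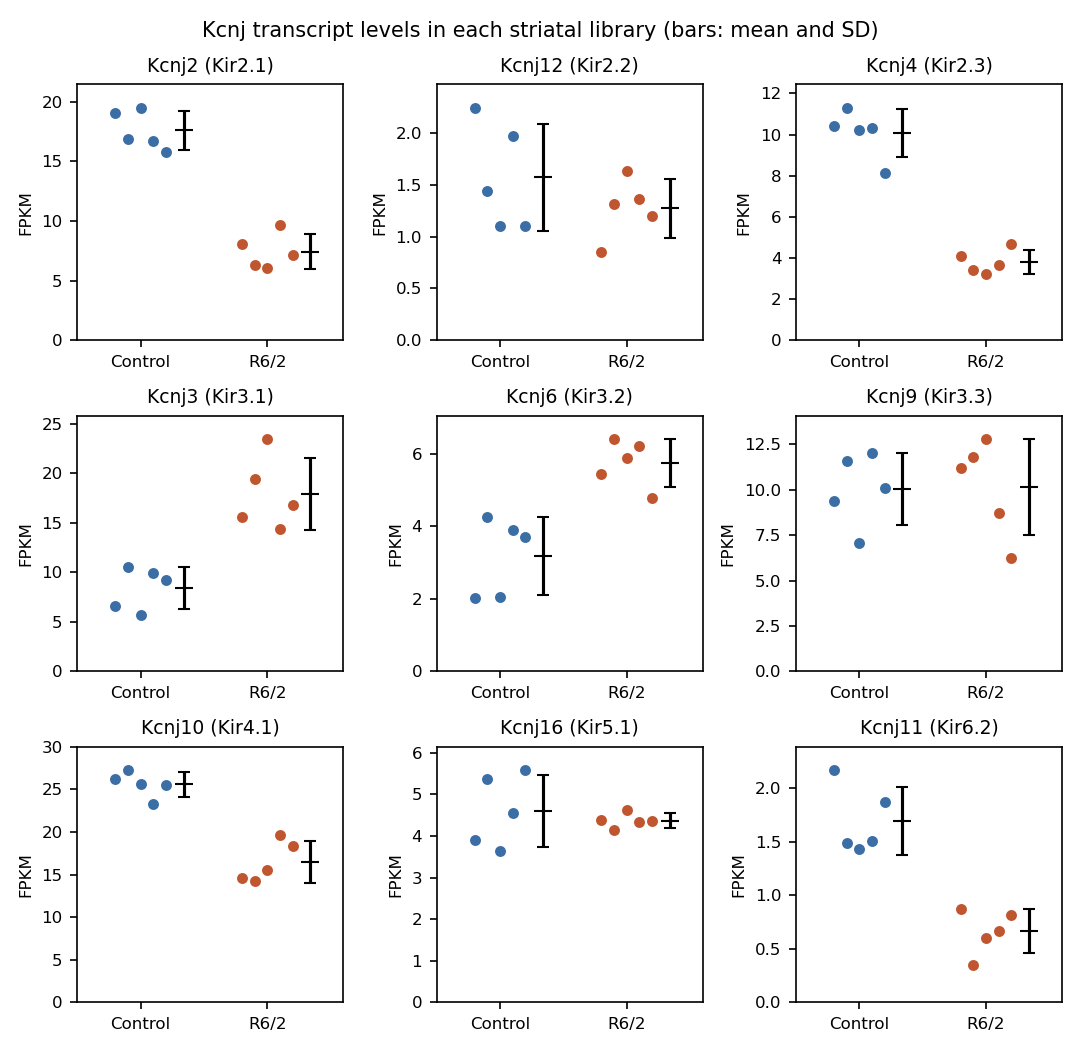
FPKM of each of the 9 Kcnj genes in each library, with 5 control libraries (blue) and 5 R6/2 libraries (orange) in the order of their numbers and the group mean with its SD in black. Kcnj2, Kcnj4, Kcnj10 and Kcnj11 lie lower in every R6/2 library than in any control library, Kcnj3 and Kcnj6 lie higher, and the other genes overlap between the groups.

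Some facts of the whole comparison touch these results. All 19 spiny neuron markers tested fell, with a median log2 change of -2.16, and their summed level was 2770 to 3480 FPKM in controls and 543 to 801 FPKM in R6/2, so the markers that define striatum were present in every library and lower in the R6/2 group. Of 15 astrocyte markers 7 fell, of 9 myelin markers 6 fell, and of 4 cholinergic interneuron markers 4 fell. Of 8 microglia markers 1 fell, and none of 4 oligodendrocyte precursor, 6 endothelial, 4 mural and 5 choroid plexus markers was called. Markers of cortical neurons, which the striatum itself does not hold, were present in all libraries. Their summed level was higher in R6/2, at 22.3 to 50.8 FPKM in controls and 52.1 to 94.9 FPKM in R6/2. Of the 5 cortical markers tested singly, 1 was called higher. In bulk tissue, fewer cells of a type and less RNA per cell cannot be told apart. Over all genes 795 were higher and 1449 lower, and after protein-coding genes were rescaled to 1 total 1522 were higher and 1136 lower, while the calls of the members were the same under that rescaling.

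Among the Kir2 subunits, Kcnj2 encodes Kir2.1, the main strong inward rectifier of many excitable cells, and lies on GRCm38 chromosome 11 from 111066164 to 111076821 (ENSMUSG00000041695.2). It measured 19.1, 16.9, 19.5, 16.7 and 15.8 FPKM in Controls 1 to 5 and 8.04, 6.28, 6.03, 9.71 and 7.18 FPKM in R6/2 1 to 5. The highest R6/2 library lay well under the lowest control. The mean fell from 17.6 ± 1.59 to 7.45 ± 1.49 FPKM (SD, n = 5), and limma gave a log2 change of -1.15 with SE 0.12 (adjusted p = 0.000273).

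Kcnj4 encodes Kir2.3, a subunit found mainly in forebrain neurons, and lies on chromosome 15 from 79483714 to 79505241 (ENSMUSG00000044216.6). Its levels were 10.4, 11.3, 10.2, 10.3 and 8.13 FPKM in Controls 1 to 5, and 4.1, 3.42, 3.25, 3.64 and 4.69 FPKM in R6/2 1 to 5. All R6/2 libraries sat close together and below every control. Its fall was the largest among the members on the log2(FPKM + 1) scale, at -1.20 with SE 0.11 (limma, adjusted p = 0.000103), and its mean was 10.1 ± 1.16 FPKM in controls and 3.82 ± 0.579 FPKM in R6/2 (SD, n = 5).

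Kcnj12 encodes Kir2.2, the third subunit of the subfamily in this set, and lies on chromosome 11 from 61022564 to 61071131. It was low in both groups, at 1.1 to 2.24 FPKM in controls (median 1.44) and 0.853 to 1.63 FPKM in R6/2 (median 1.31), and the groups overlapped. Its log2 change was -0.17, with a 95% interval from -0.56 to 0.23 (limma adjusted p = 0.583).

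The 3 genes together made up 35.4 ± 3.97% of the summed FPKM of the 9 members in controls and 18.6 ± 2.83% in R6/2 (SD, n = 5), with summed levels of 25.1 to 31.7 and 10.9 to 14.7 FPKM. Within libraries, Kcnj4 and Kcnj2 were not shown to change relative to each other. The log2 ratio of Kcnj4 to Kcnj2 averaged -0.80 ± 0.16 for controls and -0.94 ± 0.29 for R6/2 (SD, n = 5). A two-sided exact permutation test gave p = 0.452, also 0.452 after Benjamini-Hochberg adjustment over the 6 pairs compared. All 6 pairs were chosen with earlier results of these data known, so their p-values are no independent support for the calls. Kcnj4 did fall relative to Kcnj12: that log2 ratio went from 2.65 ± 0.39 to 1.53 ± 0.47 (SD, n = 5). The two-sided exact permutation p was 0.00794, the smallest that 5 against 5 libraries can give, and 0.0119 after adjustment. The 5 R6/2 values of that ratio were all below the 5 control values, the nearest being 2.14 in R6/2 1 and 2.17 in Control 1.

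The 250 bases before the start sites of Kcnj2 and Kcnj4 are shown because these genes fell together, and those of Kcnj3 and Kcnj6, described next, because those genes rose together. The sequences are from RefSeq (GRCm38.p6), 5′ to 3′ on the strand of the gene, and matched 8 of the 9 members by symbol, all but Kcnj11. They are at chr11:111065914-111066163 (plus strand) for Kcnj2, chr15:79505242-79505491 (minus) for Kcnj4, chr2:55435720-55435969 (plus) for Kcnj3 and chr16:94997697-94997946 (minus) for Kcnj6. Capitals mark every match, on either strand, to 5 motifs that were searched: the TATA box TATAAA, the GC box GGGCGG, the CCAAT box CCAAT, the cyclic AMP response element TGACGTCA and the E-box CACGTG.
Kcnj2: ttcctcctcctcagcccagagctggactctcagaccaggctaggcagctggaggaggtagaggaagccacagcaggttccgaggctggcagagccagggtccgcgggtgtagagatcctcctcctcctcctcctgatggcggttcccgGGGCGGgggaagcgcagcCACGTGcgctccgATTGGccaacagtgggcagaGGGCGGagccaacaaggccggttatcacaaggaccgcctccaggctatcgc
Kcnj4: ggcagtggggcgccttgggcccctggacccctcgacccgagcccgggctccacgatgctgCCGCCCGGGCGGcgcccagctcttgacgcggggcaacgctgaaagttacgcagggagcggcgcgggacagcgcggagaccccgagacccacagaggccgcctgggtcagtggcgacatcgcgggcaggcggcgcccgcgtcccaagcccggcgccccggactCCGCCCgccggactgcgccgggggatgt
Kcnj3: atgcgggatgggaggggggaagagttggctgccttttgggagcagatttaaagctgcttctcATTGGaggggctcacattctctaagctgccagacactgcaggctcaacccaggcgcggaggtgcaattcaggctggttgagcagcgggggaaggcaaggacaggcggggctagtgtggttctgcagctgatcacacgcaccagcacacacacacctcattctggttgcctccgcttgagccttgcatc
Kcnj6: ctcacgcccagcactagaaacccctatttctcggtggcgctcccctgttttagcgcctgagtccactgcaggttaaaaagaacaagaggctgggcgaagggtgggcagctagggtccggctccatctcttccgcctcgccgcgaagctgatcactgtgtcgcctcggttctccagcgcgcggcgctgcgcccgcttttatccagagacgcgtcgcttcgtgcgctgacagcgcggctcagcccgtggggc
The Kcnj2 window held 2 GC boxes, 1 CCAAT box and 1 E-box, and the Kcnj4 window held 3 GC boxes, 2 of them side by side on opposite strands. The Kcnj3 window held 1 CCAAT box, and the Kcnj6 window held none of the 5 motifs. Among 32851 promoter windows of this length, 32.7% held a GC box, 33.8% a CCAAT box, 6.02% an E-box, 12.4% a TATA box and 1.55% a cyclic AMP response element. The Kcnj4 window was the richest of the 4 in G and C, at 77.2% with 35 CpG pairs, against 65.6% and 14 for Kcnj2, 58.4% and 7 for Kcnj3, and 64.0% and 26 for Kcnj6. The median of all windows was 52.4% with 6 CpG pairs. These matches are letters in a window and say nothing of binding.

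Among the G protein-gated Kir3 subunits, Kcnj3 encodes Kir3.1 (GIRK1), which forms channels with a partner subunit, and lies on chromosome 2 from 55435970 to 55598145 (ENSMUSG00000026824.11). Kcnj3 measured 6.60, 10.5, 5.72, 9.99 and 9.23 FPKM in Controls 1 to 5 and 15.6, 19.4, 23.5, 14.4 and 16.8 FPKM in R6/2 1 to 5. Controls 1 and 3 were the lowest, R6/2 2 and 3 the highest, and the groups did not overlap. The mean rose from 8.40 ± 2.12 to 17.9 ± 3.62 FPKM (SD, n = 5). In limma this was a log2 change of 1.02 with SE 0.18 (adjusted p = 0.00512).

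Kcnj6 encodes Kir3.2 (GIRK2), the partner that brings neuronal GIRK channels to the surface, and lies on chromosome 16 from 94748636 to 94997701 (ENSMUSG00000043301.15). Its levels were 2.01, 4.26, 2.05, 3.90 and 3.70 FPKM in Controls 1 to 5 and 5.44, 6.41, 5.87, 6.22 and 4.78 FPKM in R6/2 1 to 5. Controls 1 and 3 were again lowest, and the lowest R6/2 library lay just above the highest control. The mean rose from 3.18 ± 1.07 to 5.75 ± 0.653 FPKM (SD, n = 5). In limma this was a log2 change of 0.73 with SE 0.18 (adjusted p = 0.0243). The call was not stable. It was lost without Control 1, Control 3 or R6/2 1, 2, 3 or 4, with limma adjusted p of 0.051 to 0.0609 and log2 changes of 0.62 to 0.74 there, and with the replicate number as a block (limma adjusted p = 0.0545).

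Kcnj9 encodes Kir3.3 (GIRK3), which joins other Kir3 subunits and directs them to lysosomes, and lies on chromosome 1 from 172320501 to 172329318. It was at 7.09 to 12 FPKM in controls (median 10.1) and 6.22 to 12.8 FPKM in R6/2 (median 11.2), with overlapping groups. Its mean was 10 ± 1.97 FPKM in controls and 10.2 ± 2.67 FPKM in R6/2 (SD, n = 5), and the 95% interval of the log2 change ran from -0.44 to 0.44 (limma adjusted p = 0.998).

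The make-up of the Kir3 transcripts shifted towards Kcnj3 and Kcnj6. The log2 ratio of Kcnj3 to Kcnj9 was -0.27 ± 0.15 in controls and 0.84 ± 0.35 in R6/2, and that of Kcnj6 to Kcnj9 was -1.67 ± 0.31 and -0.77 ± 0.33 (SD, n = 5). Both had a two-sided exact permutation p of 0.00794, adjusted to 0.0119. As plain ratios, Kcnj3 stood at 0.832 times Kcnj9 in controls and 1.84 times in R6/2. Kcnj3 and Kcnj6 were not shown to differ from each other, with a log2 ratio of 1.40 ± 0.16 and 1.61 ± 0.30 (exact permutation test, two-sided, n = 5, p = 0.214, adjusted p = 0.257). The 3 Kir3 genes together held 25.9 ± 4.93% of the summed FPKM of the members in controls and 49.7 ± 6.82% in R6/2 (SD, n = 5).

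**Figure D2:**
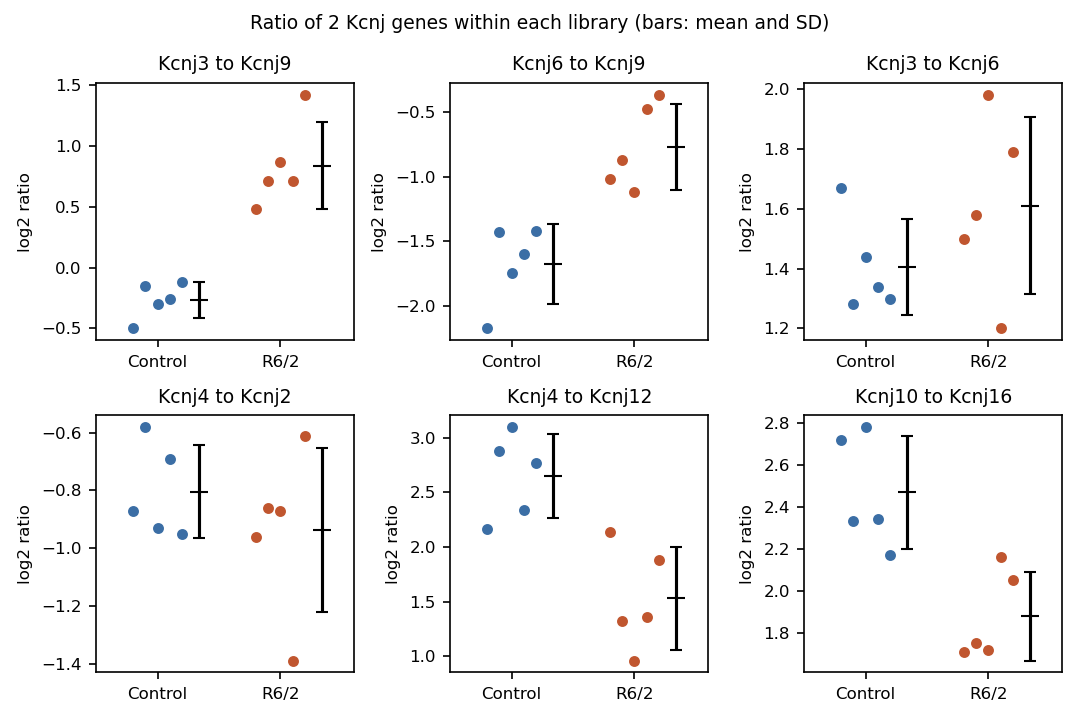
Log2 ratio of the FPKM of 2 Kcnj genes within each library (pseudocount 0.1 FPKM), for the 6 pairs compared, with control libraries in blue, R6/2 libraries in orange and the mean with its SD in black. The groups do not overlap for Kcnj3 to Kcnj9, Kcnj6 to Kcnj9, Kcnj4 to Kcnj12 and Kcnj10 to Kcnj16, and overlap for Kcnj3 to Kcnj6 and Kcnj4 to Kcnj2.

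Cortical neurons also express Kir3 genes. The mean level of cortical neuron markers was higher in every R6/2 library than in any control, as were Kcnj3 and Kcnj6. Taken singly, Slc17a7, Neurod6, Tbr1 and Slc30a3 each overlapped between the groups. The mean of the 5 tested cortical markers, among them Slc17a7, Neurod6, Tbr1 and Slc30a3, on log2(FPKM + 1) was 2.38, 3.2, 2.21, 3.21 and 3.1 in Controls 1 to 5 and 3.48, 3.86, 4.17, 3.31 and 3.42 in R6/2 1 to 5. Among the controls, libraries 1 and 3 were lowest for the markers and for Kcnj3, Kcnj6 and the uncalled Kcnj9. R6/2 3 was highest for the markers, Kcnj3 and Kcnj9. Within R6/2, Kcnj6 followed the markers only in part, which was not tested. It was highest in library 2 (6.41 FPKM, marker level 3.86) and lowest in library 5 (4.78 FPKM, marker level 3.42). Library 4 had the lowest marker level and a Kcnj6 level of 6.22 FPKM, above the 5.87 FPKM of library 3. Of the 5 cortical markers tested, 1 was called higher. By limma, Slc30a3 had a log2 change of 1.18 (adjusted p = 0.0541), Slc17a7 of 0.77 (0.074), Neurod6 of 0.62 (0.0657) and Tbr1 of 0.48 (0.241). The sixth marker, Emx1, was at most 0.444 FPKM and was not tested.

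When limma also held the cortical level, Kcnj3 had a log2 change of 0.44 (adjusted p = 0.0358), Kcnj6 one of 0.26 (adjusted p = 0.544) and Kcnj9 one of -0.50 (adjusted p = 0.277). The cortical level did not overlap between the groups (3.21 in the highest control, 3.31 in the lowest R6/2 library), so group and cortical level cannot be fully told apart in this or any other fit that holds both. The libraries nearest in cortical level across the groups were R6/2 4 (3.31), Control 4 (3.21) and Control 2 (3.2). Kcnj3 was at 14.4 FPKM in R6/2 4, 9.99 in Control 4 and 10.5 in Control 2, and Kcnj6 was at 6.22, 3.90 and 4.26 FPKM in the same libraries. Leaving out Controls 1 and 3 gave Kcnj3 a log2 change of 0.78 (limma, adjusted p = 0.0287) and Kcnj6 one of 0.44 (adjusted p = 0.0599).

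**Figure D3:**
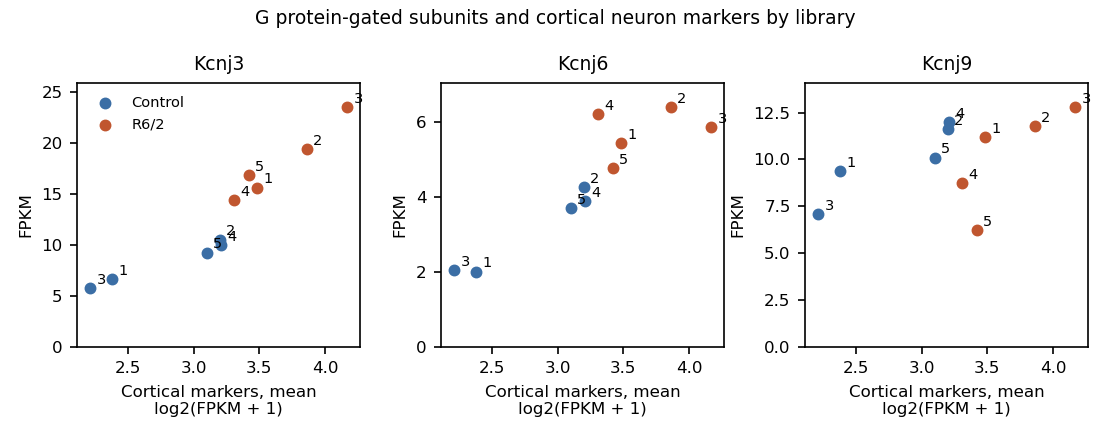
FPKM of Kcnj3, Kcnj6 and Kcnj9 (vertical axes) against the mean log2(FPKM + 1) of 5 cortical neuron markers (horizontal axes), with each point 1 library marked by its number, control in blue and R6/2 in orange. Controls 1 and 3 have the least cortical signal (2.38 and 2.21) and the lowest Kcnj3 and Kcnj6, and R6/2 3 has the most (4.17) and the highest Kcnj3 and Kcnj9.

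Among the astrocyte subunits, Kcnj10 encodes Kir4.1, the main potassium channel of astrocytes, and lies on chromosome 1 from 172341210 to 172374085 (ENSMUSG00000044708.5). It measured 26.2, 27.3, 25.6, 23.3 and 25.5 FPKM in Controls 1 to 5 and 14.6, 14.2, 15.5, 19.7 and 18.4 FPKM in R6/2 1 to 5. R6/2 4 and 5 were the least reduced, and no R6/2 library reached the controls. Group means were 25.6 ± 1.46 and 16.5 ± 2.42 FPKM (SD, n = 5), and limma gave a log2 change of -0.62 with SE 0.10 (adjusted p = 0.00278). The call was lost with the cortical level in the model (-0.50, limma, adjusted p = 0.112).

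Kcnj16 encodes Kir5.1, which forms pH-sensitive channels with Kir4.1, and lies on chromosome 11 from 110968033 to 111027968. It was at 3.64 to 5.59 FPKM in controls (median 4.54) and 4.14 to 4.62 FPKM in R6/2 (median 4.36), so that the R6/2 values lay inside the control range. Its log2 change was -0.05 with a 95% interval from -0.29 to 0.20 (limma adjusted p = 0.818). The log2 ratio of Kcnj10 to Kcnj16 fell from 2.47 ± 0.27 to 1.88 ± 0.21 (SD, n = 5), with a two-sided exact permutation p of 0.00794 adjusted to 0.0119, and with 2.17 in the lowest control and 2.16 in the highest R6/2 library.

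Other astrocyte genes were lower too. Of the 15 astrocyte markers tested 7 fell and none rose, with a median log2 change of -0.45. Over all genes tested 9.11% were called lower and 5.00% higher. Log2 changes were -1.35 for the sodium bicarbonate transporter gene Slc4a4, -0.90 for the glutamate transporter gene Slc1a2 and -0.60 for the glutamine synthetase gene Glul (limma, adjusted p = 0.000575, 0.000668 and 0.000876). The summed level of the list was 1290 to 1540 FPKM in controls and 906 to 1060 FPKM in R6/2, without overlap. A fall of Kcnj10 within astrocytes and a lower amount of astrocyte RNA therefore cannot be told apart. Of 9 myelin markers 6 fell as well (median log2 change -0.81), and which cells the Kcnj10 transcripts came from was not tested. Of 11 tested genes for potassium leak and uptake outside the Kcnj family 4 fell and none rose (median -0.24). Among them, log2 changes were -1.15 and -0.53 for the leak channel genes Kcnk2 and Kcnk1 (limma, adjusted p = 0.000247 and 0.00521).

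Kcnj11 encodes Kir6.2, the pore of neuronal ATP-sensitive channels, and lies on chromosome 7 from 46093953 to 46100764 (ENSMUSG00000096146.1). It was the least abundant member in R6/2, at 0.874, 0.352, 0.604, 0.664 and 0.817 FPKM in R6/2 1 to 5 against 2.17, 1.49, 1.43, 1.51 and 1.87 FPKM in Controls 1 to 5. The groups did not overlap, though all values were low. The mean went from 1.69 ± 0.319 to 0.662 ± 0.205 FPKM (SD, n = 5), a log2 change of -0.70 (SE 0.16, limma adjusted p = 0.0191) that was -1.27 with 0.1 FPKM added before the logarithm and -0.24 with 5 FPKM added. The call was lost with the replicate number as a block (limma adjusted p = 0.0688) and with the cortical level in the model (log2 change -0.57, limma adjusted p = 0.304).

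Abcc8, which encodes the sulfonylurea receptor SUR1 that Kir6.2 joins in neurons, was at 1.48 to 2.07 FPKM in controls and 1.02 to 1.81 FPKM in R6/2, with overlapping groups. Its log2 change was -0.21 (limma adjusted p = 0.397). For Abcc9, which encodes SUR2, limma gave 0.04 (adjusted p = 0.859). Kcnj8, the Kir6.1 gene of mural cells and a usual partner of SUR2, had a mean of 0.961 FPKM in controls and 0.985 FPKM in R6/2 and was under the minimum for a test.

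**Figure D4:**
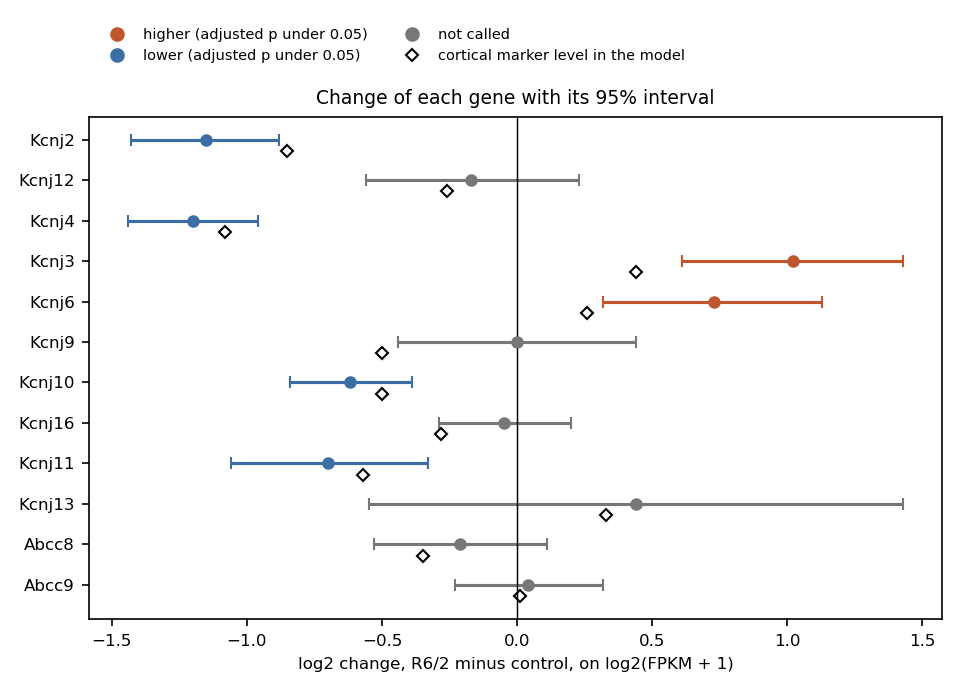
Log2 change (R6/2 minus control, on log2(FPKM + 1)) of the 9 Kcnj genes and of Kcnj13, Abcc8 and Abcc9, with 95% intervals from limma. Orange marks genes called higher, blue genes called lower, grey genes not called, and open diamonds give the change with the cortical marker level in the model, which for Kcnj3 is 0.44 beside 1.02.

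The order of the members changed between the groups. In controls Kcnj10 was the most abundant per length, followed by Kcnj2, and each of these stood apart from the next gene in the order. Kcnj4, Kcnj9 and Kcnj3 came next with overlapping ranges, then Kcnj16 and Kcnj6, which overlapped each other, and Kcnj6 overlapped Kcnj11, which overlapped Kcnj12. In R6/2 Kcnj3 came first at 17.9 FPKM and Kcnj10 second at 16.5 FPKM, and their ranges overlapped. Kcnj9, Kcnj2 and Kcnj6 followed, each overlapping the next, then Kcnj16 and Kcnj4, which overlapped, and last Kcnj12 and Kcnj11, which overlapped. The summed FPKM of the 9 genes was 82.8 ± 5.03 in controls and 67.9 ± 3.75 in R6/2 (SD, n = 5), and Kcnj3 alone made up 10.1 ± 2.12% of it in controls and 26.3 ± 4.22% in R6/2.

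**Figure D5:**
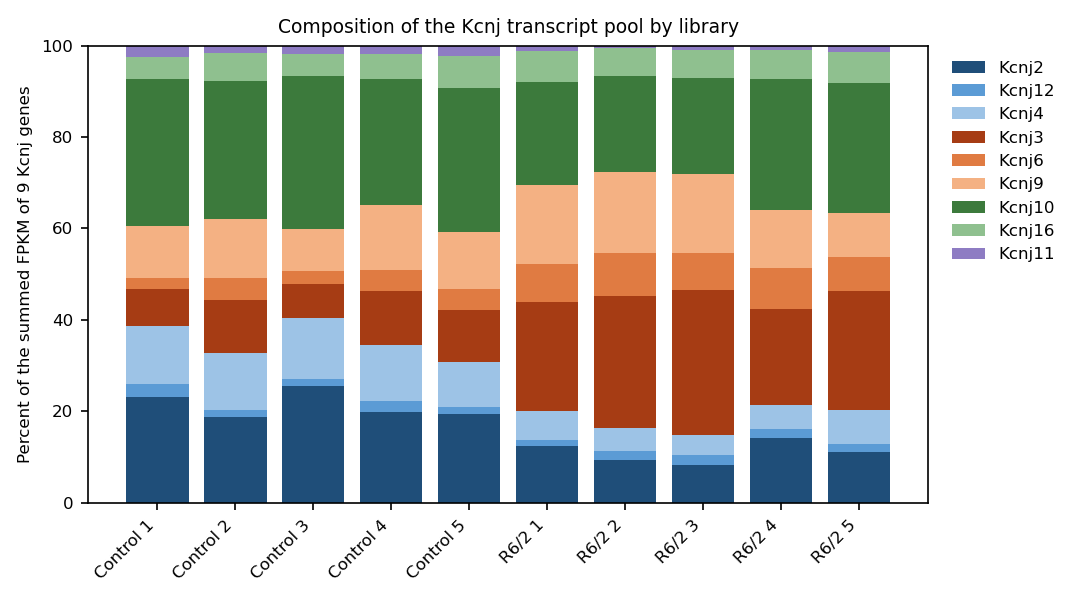
Share of each of the 9 Kcnj genes in their summed FPKM (vertical axis, percent) in each library (horizontal axis), with Kir2 genes in blue, Kir3 genes in orange, Kcnj10 and Kcnj16 in green and Kcnj11 in violet. The Kir3 share is 19.5% to 30.7% in the control libraries and 42.7% to 57.2% in the R6/2 libraries.

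Several members are neighbours on a chromosome. Kcnj9 and Kcnj10 start 11.9 kb apart on opposite strands of chromosome 1 with no gene between them. Kcnj10 fell, and Kcnj9 had a log2 change of 0.00. Kcnj16 and Kcnj2 lie in tandem on chromosome 11 with a gap of 38.2 kb. Their log2 changes were -0.05 and -1.15. Kcnj11 and Abcc8 lie 3.8 kb apart on the minus strand of chromosome 7, with log2 changes of -0.70 and -0.21. The differences between neighbours were not tested. Exons of Kcnj3, Kcnj6 and Kcnj9 overlap those of unnamed genes on the other strand, and since no source used here gives the strand setting, reads of the overlapping genes may not be separable. The partner of Kcnj3, Gm26794, was at most 1.24 FPKM, and that of Kcnj9, Gm36937, at most 3.11 FPKM. That of Kcnj6 was not found by symbol among the deposited values.

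Of the 6 other Kcnj genes, only Kcnj13 reached the mean required for a test. Kcnj13 encodes Kir7.1, a channel of the choroid plexus and other epithelia, and was at 4.48, 10, 2.53, 1.06 and 1.43 FPKM in Controls 1 to 5 and 4.48, 8.45, 4.16, 3.14 and 3.47 FPKM in R6/2 1 to 5. Control 2 and R6/2 2 were the highest, the same libraries in which Ttr, a transcript that defines choroid plexus, was highest, at 528 and 445 FPKM. The log2 change of Kcnj13 was 0.44 (limma adjusted p = 0.559), and its exons overlap those of Gigyf2 on the other strand. Gigyf2 was far more abundant, at 62.7 to 86.6 FPKM, with a log2 change of 0.24 (limma adjusted p = 0.0691). Whether reads of Gigyf2 entered the Kcnj13 values was not tested. Kcnj5 and Kcnj8 had means of 0.33 and 0.973 FPKM over all libraries, Kcnj14 and Kcnj15 stayed at or under 0.12 and 0.249 FPKM, and Kcnj1, the kidney channel ROMK, was listed at 0 in all 10.

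Genes that act with the channels were counted by their role, here and in the next paragraph. Beside these counts, 9.11% of all genes tested were called lower and 5.00% higher. Of 19 tested receptors that can open Kir3 channels 12 fell and none rose (median log2 change -0.72). Log2 changes were -2.46 for the D2 dopamine receptor gene Drd2, -2.14 for the cannabinoid receptor gene Cnr1 and -0.96 for the metabotropic glutamate receptor gene Grm3 (limma, adjusted p = 4.1e-06, 4.1e-06 and 8.08e-05). Of 17 G protein subunit genes 3 rose and 3 fell (median 0.02). The changes were -2.06 for the gamma subunit gene Gng7, which is also in the spiny neuron list, 0.92 for Gng3, another neuronal gamma subunit, and -1.12 for Gnb5, the beta subunit that pairs with RGS proteins (limma, adjusted p = 7.4e-05, 0.000132 and 0.00353).

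Of 12 regulators of Kir3 signals tested, 6 fell and none rose (median log2 change -0.66). Changes were -2.94 for Rgs9, a striatal RGS gene that is also in the spiny neuron list, -2.34 for Rgs4, and -1.33 for Rgs7bp, whose product anchors RGS proteins at the membrane (limma, adjusted p = 2.07e-05, 1.12e-05 and 6.95e-06). Of 13 scaffold genes that hold Kir channels at synapses or in astrocyte endfeet 6 fell and none rose (median -0.22), among them Lin7b at -0.89, the PSD-95 gene Dlg4 at -0.72 and Dlg1 at -0.47 (limma, adjusted p = 0.00142, 0.00202 and 0.00817). Of 11 genes of PIP2 supply and breakdown 2 fell and 1 rose (median -0.09), beside 9.11% and 5.00% of all genes tested. The phospholipase gene Plcb1 had -1.06, the lipid kinase gene Pi4ka -0.34 and the PIP2 phosphatase gene Synj1 0.61 (limma, adjusted p = 0.000468, 0.0132 and 0.00506). The call of Pi4ka was lost after quantile normalization (-0.20, limma adjusted p = 0.139) and rescaling (-0.23, 0.0769), with the replicate block (-0.34, 0.0641) and without Controls 1 and 3 (-0.32, 0.0533). With the cortical level in the model the limma adjusted p was 0.145 for Gnb5, 0.0969 for Dlg4, 0.107 for Dlg1, 0.102 for Synj1, 0.199 for Pi4ka and 0.075 for Kcnk1.

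The genes whose profile over the 10 libraries lay nearest each called member were sought among 11691 other protein-coding genes, by the root mean square difference of log2(FPKM + 1) after each gene's own mean was subtracted. For Kcnj2 they were Mapk4 (0.084), Bcl11b (0.114) and Plekha5 (0.115), of which Bcl11b, the transcription factor CTIP2, was also in the list of spiny neuron markers. For Kcnj4 they were Gm45837 (0.103), Gcnt2 (0.121) and Adamts3 (0.129), and for Kcnj11 Epb41 (0.110), Samd4 (0.114) and Aff3 (0.116). For Kcnj3 they were Efr3a (0.0881), Cdh12 (0.115) and Cnrip1 (0.130). For Kcnj6 they were Neurod6 (0.121), Slitrk1 (0.137) and Serpini1 (0.140), of which Neurod6 was in the list of cortical neuron markers. For Kcnj10 they were Adam23 (0.109), Pde8b (0.110) and Fscn1 (0.114), none of them in the list of astrocyte markers. The difference between the groups is part of every such profile, and the likeness was not tested.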

How the data were processed

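RNA of 10 mouse striatal libraries, 5 control and 5 R6/2, was sequenced after NuGEN amplification and Nextera library preparation, per the labels' protocols. The authors deposited FPKM values, 1 column per library. STAR 2.4.0, Cufflinks and Cuffdiff with GRCm38 are named in the submitters' processing notes. The sources used here do not say what each tool did, which annotation was used, whether counting used strand, or whether libraries were scaled to each other. FPKM carry no read totals, so depth is unknown, no counting interval is given, and an exact 0 may be a failed estimate. Columns were tied to samples by name, and Ensembl IDs to symbols and positions by GENCODE (GRCm38), with 47220 of 47632 IDs and all 9 members matched, 6 of them also in version.

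The 15905 genes whose mean reached 1 FPKM entered limma 3.58.1, run in R 4.3.3 (empirical Bayes with trend) on log2(FPKM + 1), two-sided, with Benjamini-Hochberg adjustment over all genes tested and a threshold of 0.05. The same code was tested on simulated data. Ratios within libraries (pseudocount 0.1 FPKM) were compared with exact permutation tests over the 252 splits (SciPy 1.17.1), adjusted over 6 pairs. Alternatives changed the pseudocount, the filter, the scaling, the trend, array weights, a replicate block and 3 marker covariates, and left out libraries. The rule for named genes took all Kcnj genes, Abcc8, Abcc9, the cortical markers, the 3 tested genes with the smallest p of every other list, and the 3 nearest profiles of each called member. For most lists of other cell types only counts are printed, and some genes the rule took are not reported here. The members, lists, pairs and rules were chosen with earlier results of these data known. Gm26794, Gm36937 and Gigyf2 were named after their values were seen.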

Additional observations from a re-analysis of the deposited data

Results flagged for a closer look

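Among the 36 groups of 5 values examined (Kcnj genes, Abcc8 and Abcc9 with a mean of at least 1 FPKM, and the 6 ratios), 2 had a library far from the other 4, and chance flags about 1 in 20 groups. Kcnj13 was at 8.45 FPKM in R6/2 2, where the gap to the next R6/2 library took 0.747 of the group's range. Abcc9 was at 2.28 FPKM in Control 5, with a gap of 0.742 of the range. No value of the 9 members stood apart in this way.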

How the results depend on the processing

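Of the 6 called members, Kcnj2, Kcnj4 and Kcnj3 kept direction and call in every setting tried except those with astrocyte or spiny neuron markers as a covariate. In those fits 0 genes were called higher and 0 lower over all genes and among the members by limma (1 member with the astrocyte and 2 with the spiny neuron covariate had an unadjusted p under 0.05). With the spiny neuron covariate the log2 change was 0.37 for Kcnj2, -1.60 for Kcnj3 and -0.99 for Kcnj6. Under the same covariate it was 0.45 for Gng7, 0.93 for Gnb5, 0.51 for Dlg4, 0.06 for Plcb1, 0.19 for Slc4a4 and 0.05 for P2ry12. With the astrocyte covariate it was -0.19 for Kcnj6 and 0.12 for Kcnj10. All of these were opposite in sign to the fit without a covariate, where the microglia marker P2ry12 had -0.52. With the cortical markers as a covariate 1 member was higher and 2 lower (109 and 495 of all genes). The levels of all 3 marker lists separate the groups without overlap, so that group and covariate cannot be fully told apart in any of these fits. Without Controls 1 and 3, a choice made after seeing the data, 1 was higher and 4 lower (310 and 810 of all genes). The log2 ratio then differed by 1.02 for Kcnj3 to Kcnj9, 0.71 for Kcnj6 to Kcnj9, -1.13 for Kcnj4 to Kcnj12 and -0.4 for Kcnj10 to Kcnj16, each at the smallest exact p that 3 against 5 libraries allow (0.0357, adjusted 0.0536). With a minimum mean of 5 FPKM, which leaves 5 members, 1 was higher and 3 lower (647 and 1134 of 9015 genes tested). That filter took out the called Kcnj6 and Kcnj11, and the called members that remained kept their calls. Rescaling of protein-coding genes gave 1522 higher genes. The protein-coding total, without mitochondrial genes, was 193200 to 202900 FPKM in R6/2 libraries and 211200 to 219400 FPKM in controls. Rescaling therefore raised R6/2 values relative to controls, and the median log2 change went from 0.001 to 0.093. The cause of that difference in totals and of the other shifts was not tested. Leaving out 1 library at a time gave 1 to 2 members higher and 4 lower, 576 to 890 genes higher and 1193 to 1518 lower. The replicate numbers of the labels did not pair the libraries (correlations of same-numbered deviations -0.0528 to 0.0495, and 1 of 5 controls closest to its own number), and with the replicate block 1 member was higher and 3 lower (370 and 975 of all genes). Depth is unknown, so what it limits for Kcnj11 and Kcnj12, the lowest members, cannot be stated.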
